A study of Equus caballus with 4 samples.

Results

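Nuclear receptors were examined in equine satellite cells, the muscle stem cells that lie beside the myofiber, as 39 genes chosen by name. A gene was represented by the array probes that carried its symbol, and where there were several, by the probe with the highest mean log2 processed signal over both channels. Of the 39 genes, 35 had a probe, 17 were bright enough to be tested, and 5 of these were past both thresholds. The arrays as a whole named 13350 genes, of which 9058 were tested.

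Cells came from the semitendinosus muscle of colts 6 months of age, and the methods state that the culture with the best viability and fusion was chosen for further work. After 2 days in differentiation medium, cells received 0.125 μM gamma-oryzanol (GO), a mixture of sterol and triterpene alcohol ferulates from rice bran, and RNA was taken 24 h later, on day 3. Control cells received the vehicle alone, and both groups had 0.04 μl DMSO per ml of medium. On each of the 4 arrays Cy5 carried the RNA of GO-treated cells and Cy3 that of control cells. The dyes were never swapped, so dye and GO cannot be told apart by the design. The labels call the 4 arrays biological replicates but do not say whether they came from separate animals or platings, and p-values measure only the spread between these 4 arrays.

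Nuclear receptors are transcription factors that bind DNA and, in most cases, a small fat-soluble ligand. Steroid receptors bind hormones such as cortisol and aldosterone. Receptors for retinoic acid, thyroid hormone, bile acids and fatty acids pair with a retinoid X receptor on DNA. Orphan receptors were found before any ligand was known, and several of them act without one. In muscle, members of the family take part in the growth of myoblasts, in fuel use and in the daily clock. Whether GO binds any of these receptors was not measured here.

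Probe sequences are shown for receptors where they say which part of a transcript was read. They are those of the array files, with positions on EquCab1, written 5′ to 3′. In the first pair, capitals mark the stop codon that closes the reading frame starting at the first base, after 19 codons in *NR2F2* (plus strand) and 18 codons in *NR1D2* (minus strand).
NR2F2, chr1:99292032-99292091: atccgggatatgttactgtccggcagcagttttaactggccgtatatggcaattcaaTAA
NR1D2, chr16:58963295-58963354: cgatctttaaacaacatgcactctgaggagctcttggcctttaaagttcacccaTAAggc
The next pair reads the same stretch of the related genes *NR2C1* and *NR2C2*, which lie on the minus and the plus strand in that order. Capitals mark the bases that differ between them where they line up.
NR2C1, chr28:20017620-20017679: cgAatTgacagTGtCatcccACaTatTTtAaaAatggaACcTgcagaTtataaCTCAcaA
NR2C2, chr16:3864090-3864149: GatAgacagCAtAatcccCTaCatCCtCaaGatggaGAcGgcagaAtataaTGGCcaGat
Over the 58 bases that line up without a gap, 37 were the same and 21 differed.

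Detection was described first, since a log2 ratio of a dim probe carries little information. A probe was well above background on all 4 arrays in both channels for 16 receptors. For a further receptor, *NR1H4*, the bile acid receptor, this held in the control channel on 4 arrays and in the GO channel on 2. Another 7 receptors were above background on 1 to 3 arrays in at least one channel, and 11 on 0 arrays in both channels. *NR1D1*, *NR2F1*, *NR2F6* and *NR4A3* had no probe under these symbols and were not analysed here.

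**Figure D1:**
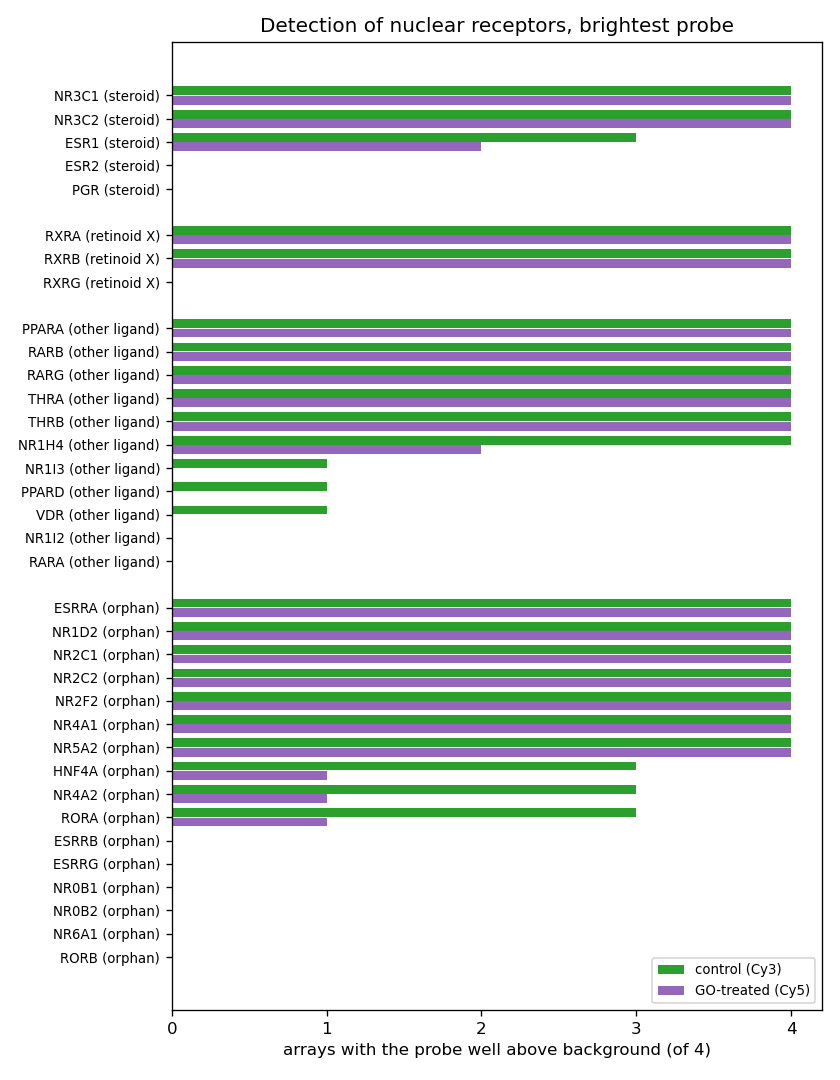
Number of arrays, of 4, on which the brightest probe of each of 35 nuclear receptors exceeded background in control (green) and GO (purple) channels, grouped by class. Receptors with no bar were not well above background on any array. The bars reach 4 in both channels for 16 receptors.

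Of 5 steroid receptors, *NR3C1*, the glucocorticoid receptor, and *NR3C2*, the mineralocorticoid receptor, were above background on all arrays. *ESR1*, an estrogen receptor, was above background on 3 arrays in the control and 2 in the GO channel. Probes of *ESR2*, the second estrogen receptor, and of *PGR*, the progesterone receptor, were above background on 0 arrays. Of 3 retinoid X receptors, *RXRA* and *RXRB* were measured and *RXRG* was above background on 0 arrays. Of 11 other receptors with a known ligand, *RARB*, *RARG*, *THRA*, *THRB*, *PPARA* and *NR1H4* were tested. *PPARD*, *VDR*, the vitamin D receptor, and the xenobiotic receptor *NR1I3* were above background on 1 array in the control and 0 in the GO channel. *RARA* and the xenobiotic receptor *NR1I2* were above background on 0 arrays. Of the 16 orphan receptors with a probe, 7 were tested: *NR2F2*, *NR2C1*, *NR2C2*, *NR1D2*, *NR4A1*, *NR5A2* and *ESRRA*. *RORA*, *NR4A2* and *HNF4A* were above background on 3 arrays in the control and 1 in the GO channel. *RORB*, *NR6A1*, *NR0B1*, *NR0B2*, *ESRRB* and *ESRRG* were above background on 0 arrays. Signals of some dim spots were replaced by a floor in the deposited files, which can give a ratio of exactly 0, as for *ESRRB* on all 4 arrays, so no ratio of an untested receptor is read as a change or as its absence. These ratios scattered: on arrays 1 to 4 *ESR1* was at 1.13, 0.25, -0.65 and -0.07, and *RORA* at 0.57, -0.68, -0.39 and -0.72.

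A gene was called changed when its adjusted p was no higher than 0.05 and its fold change reached 1.3, which is 0.38 on the log2 scale. Of the 17 receptors tested, *RARG* and *NR5A2* were higher and *NR2F2*, *NR3C2* and *NR1D2* were lower in GO-treated cells. This was 29.4% of the receptors tested, beside 8.7% (788 of 9058) of all named genes tested by the same rule. Higher were 11.8% of the receptors and 3.33% of all genes, and lower were 17.6% and 5.37%. The receptors were not drawn at random and *NR2F2* was among the genes the study selected on these same arrays, so its call is not independent evidence of its direction. The median log2 ratio was -0.13 over the 17 receptors and 0.00 over all genes. At an unadjusted p under 0.05 stood 10 of the 17, and 9 of the 17 had the same sign on all 4 arrays. The same counts over all genes were not made, so neither is read as a trait of the receptors. An adjusted p of at most 0.05, whatever the fold change, was reached by 5 of the 17 receptors and by 1568 of 9058 genes. The calls needed the pairing of channels by array and the shared variance of limma. Without the pairing 0 receptors passed in limma, with 4 at an unadjusted p under 0.05, and under a plain one-sample test 1 passed, *NR2F2*. Of all named genes tested, 1.16% passed without the pairing and 0.42% under the plain test, so these losses are not particular to the receptors.

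**Figure D2:**
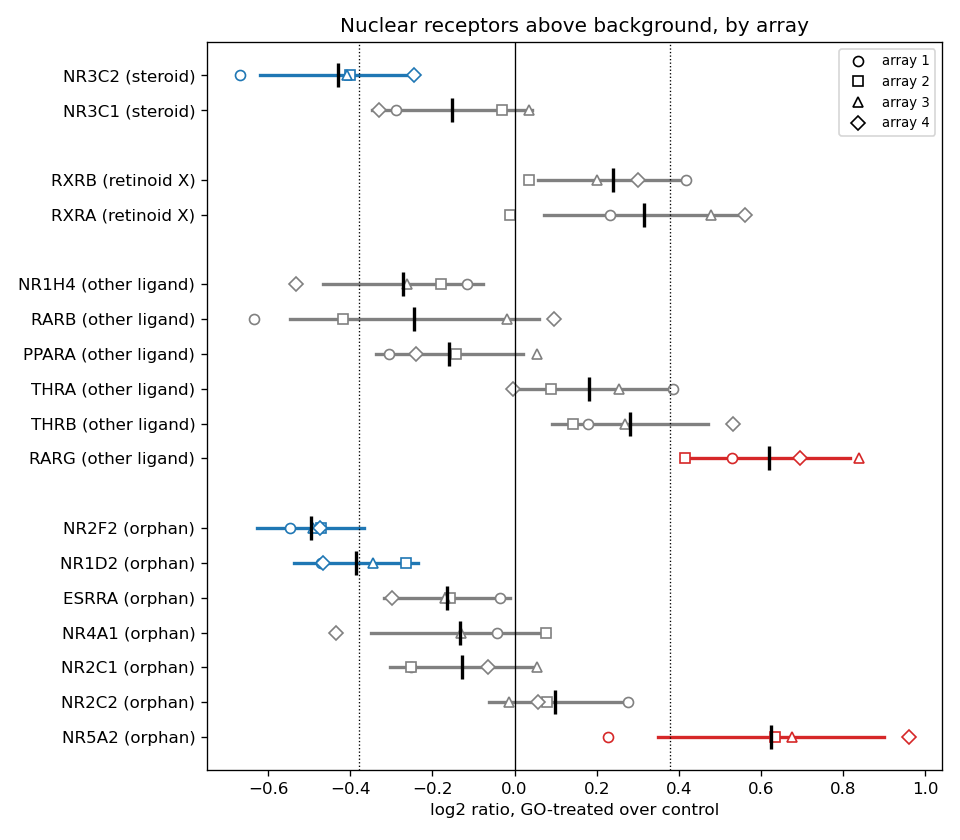
GO over control log2 ratio of the 17 nuclear receptors tested, with open symbols for the 4 arrays, black ticks for the mean and horizontal lines for the 95% confidence interval from limma. Red marks receptors called higher and blue those called lower, grey the others, and dotted lines the fold change of 1.3. *NR2F2* has the narrowest spread of the 5 coloured receptors, with an SD of 0.03.

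Processed signals showed these differences on each array. *NR2F2*, also named COUP-TFII, is an orphan receptor of mesenchymal and progenitor cells. Its signal was 3180, 2438, 3304 and 2532 in control cells on arrays 1 to 4, and 2177, 1757, 2350 and 1823 in GO-treated cells. Every signal of GO-treated cells lay below every signal of control cells. The log2 ratio was -0.55, -0.47, -0.49 and -0.47, with a mean of -0.50 ± 0.03 (SD, n = 4), a fold change of 1.41. The 95% interval ran from -0.63 to -0.37, and the adjusted p was 0.00443. The probe with these values lies at chr1:99293207-99293266, in a second stretch of the transcript. The 3 overlapping probes around the stop codon, one of which is printed above, were all past both thresholds too, and the 4 probes lay between -0.61 and -0.50. *NR2F2* thus fell at both places read. In bulk RNA, fewer cells of a type and less RNA per cell cannot be told apart.

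*NR1D2*, or Rev-erb beta, represses clock genes. Control signals of its brightest probe were 3015, 1835, 2465 and 2071, and signals of GO-treated cells 2176, 1527, 1941 and 1498. Each array was lower in GO-treated cells, although the groups overlapped across arrays. The log2 ratio was -0.47, -0.26, -0.34 and -0.47, with a mean of -0.39 ± 0.10 (SD, n = 4; adjusted p = 0.0121), which is just past the fold change threshold. The probe lies at chr16:58960315-58960374, beyond the stop codon printed above in the 3′ direction. The probe holding that stop codon gave -0.22 ± 0.15 (adjusted p = 0.0839), and the others gave -0.17 and -0.04. So the 4 probes shared a direction and differed in size, and with the mean of all probes the log2 ratio was -0.20 and the call was lost.

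*NR5A2*, or LRH-1, is best known from bile acid and steroid synthesis in liver and gonads. Signals were 290.5, 184.7, 241.0 and 199.3 in control cells and 339.9, 286.5, 384.8 and 387.6 in GO-treated cells. Signals of GO-treated cells were higher on each array, and the lowest of them was just below the highest control signal. Log2 ratios were 0.23, 0.63, 0.67 and 0.96, with a mean of 0.62 ± 0.30 (SD, n = 4; adjusted p = 0.0170). The spread between arrays was the largest of the 5 called receptors. Both probes, side by side on chromosome 30, were past both thresholds, at 0.54 and 0.62. The call was lost without array 2 and without array 3.

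*RARG* encodes retinoic acid receptor gamma. Its signal was 388.4, 431.4, 252.1 and 241.9 in control cells, and 560.7, 574.8, 450.9 and 391.4 in GO-treated cells. The rise was seen on all 4 arrays, with log2 ratios of 0.53, 0.41, 0.84 and 0.69. The mean was 0.62 ± 0.19 (SD, n = 4), with a 95% interval from 0.42 to 0.82 and an adjusted p of 0.00674. All 5 probes were past both thresholds, between 0.62 and 0.74. These probes are shifted by single bases along chromosome 6 and read 1 place of the transcript, so they are not separate evidence.

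*NR3C2*, the mineralocorticoid receptor, had control signals of 249.7, 177.1, 243.2 and 183.5 and signals of 157.2, 134.1, 183.2 and 154.7 in GO-treated cells. Each array was lower in GO-treated cells, with some overlap of the groups across arrays. Its log2 ratios were -0.67, -0.40, -0.41 and -0.25, with a mean of -0.43 ± 0.17 (SD, n = 4; adjusted p = 0.0170). After normexp background correction and loess in place of the deposited normalization, the ratio was -0.27 and no longer passed the fold change threshold. The call was also lost without array 1, 2 or 3. The other probe of *NR3C2* was not well above background on any array and could not be tested.

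**Figure D3:**
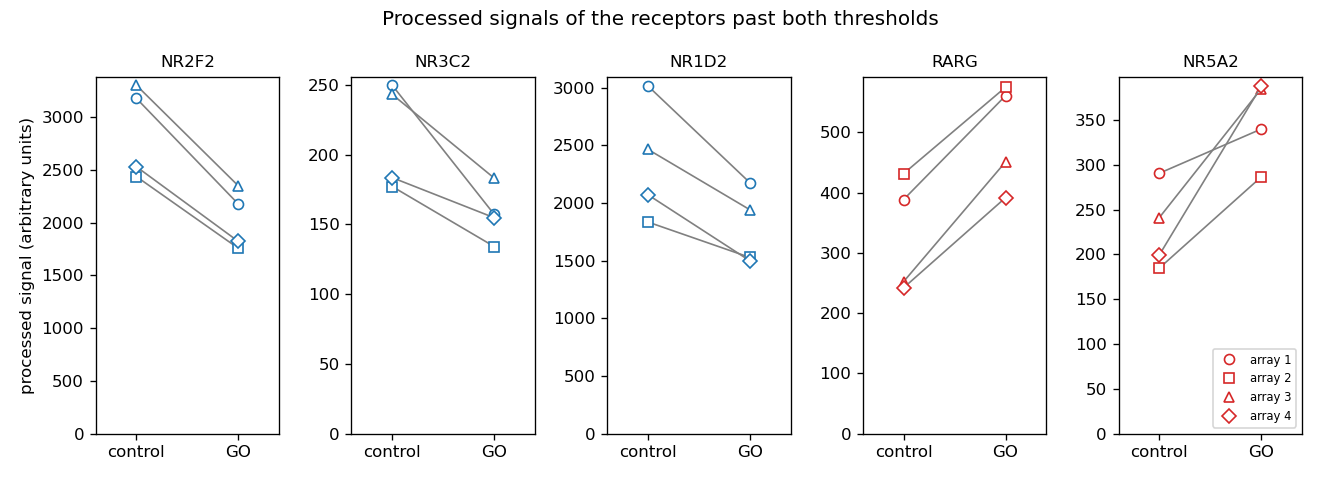
Processed signal (arbitrary units, each vertical axis from 0) of the 5 receptors past both thresholds, in control and GO-treated cells, with a line joining both channels of an array. *NR2F2* is the only one of the 5 whose groups do not overlap, and levels are not compared between receptors because each probe has its own scale.

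Markers of cell types were described on the same arrays. All 9 muscle markers with a probe were above background on all arrays, and 7 of the 9 were called lower, with a median log2 ratio of -0.63. This was 77.8% of a short, chosen list, beside 8.7% of all named genes tested. Under the plain one-sample test 1 of the 9 passed, *MYF5*, beside 0.42% of all genes. Without lowess 4 of the 9 passed, beside 10.8% of all genes. The median was then -0.40, with *MYH3* at -0.19, *ACTA1* at -0.11 and *DES* at -0.37 not passing. Their summed signal was 151550 to 207335 in control cells and 87915 to 123893 in GO-treated cells. *MYF5*, which marks committed muscle precursors, was at -0.93 ± 0.04 (SD, n = 4) and *MYOG*, which drives differentiation, at -0.40 ± 0.11. Of 14 alternative settings, *MYF5* kept its call in 14 and *MYOG* in 7. After normexp and loess *MYOG* was at -0.35 and did not pass. *MYOD1* (-0.36) and *CKM* (-0.30) did not pass both thresholds. Of the fibroblast markers, *PDGFRA* rose, at 0.87 ± 0.48, but after normexp and loess it was at 0.37 and did not pass. *COL1A2*, *COL3A1*, *DCN* and *THY1* lay between -0.10 and 0.08. After normexp and loess *COL1A2* was at 0.40 and passed, beside 3.96% of all genes. *COL3A1*, *DCN* and *THY1* were then at 0.26, 0.28 and 0.05 and did not pass. Without lowess *COL1A2*, *COL3A1* and *DCN* were at 0.95, 0.78 and 0.70. In that setting 4 of the 5 fibroblast markers tested passed, beside the same 10.8% of all genes. Summed fibroblast marker signal was 261884 to 422841 in control and 267323 to 376558 in GO-treated cells. Endothelial markers, 6 with a probe, and adipocyte markers, 4 with a probe, were above background on 0 control arrays. Of 6 leukocyte markers with a probe, 3 were tested and 0 changed by limma, with 2 at an unadjusted p under 0.05 and 0 by the plain one-sample test. *CD3E* and *ITGAM* were above background on 0 control arrays. The part of muscle and *PDGFRA* markers in the changes of the receptors was not tested.

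The other steroid receptor tested, *NR3C1*, gave log2 ratios of -0.29, -0.03, 0.03 and -0.33, with a mean of -0.15 ± 0.18 (SD, n = 4; adjusted p = 0.224). The 95% interval, -0.35 to 0.04, held 0. Its 3 probes lay between -0.26 and -0.05, and 0 of them passed both thresholds.

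The retinoid X receptors, partners of many other receptors on DNA, were both above 0 in the mean and neither passed. *RXRB* had a mean log2 ratio of 0.24 ± 0.16 (SD, n = 4; adjusted p = 0.0743). For the brightest probe of *RXRA* the ratios were 0.23, -0.01, 0.48 and 0.56, with a mean of 0.31 ± 0.26 (adjusted p = 0.0776). Its 5 probes start within a few bases of each other on chromosome 25, and they gave means from 0.23 to 1.23, with 2 of them past both thresholds. The probe at 1.23, which starts 1 base before the probe at 0.36, was above background on 3 of 4 control arrays. With the mean of all probes, *RXRA* was at 0.51 and past both thresholds. The brightest probe was at 0.10 and the probe at 1.23 was at 0.36 after normexp and loess.

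Among the retinoic acid and thyroid hormone receptors, *RARB* differed between arrays, with log2 ratios of -0.63, -0.42, -0.02 and 0.10. Its mean was -0.24 ± 0.34 (SD, n = 4; adjusted p = 0.215). A dimmer *RARB* probe, above background on 3 of 4 arrays in the GO channel, gave -0.54 and was past both thresholds, but was at -0.13 after normexp and loess. The probe next to the brightest one gave -0.16. *RARG* and *RARB* therefore had means of opposite sign, and the difference between them was not tested. *THRB*, a thyroid hormone receptor, had ratios of 0.18, 0.14, 0.27 and 0.53, with a mean of 0.28 ± 0.18 and an adjusted p of 0.0544. After normexp and loess it was at 0.11 (adjusted p = 0.249). *THRA* was at 0.18 ± 0.17 (adjusted p = 0.153).

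Of the receptors for fatty acids and bile acids, *PPARA* was at -0.16 ± 0.16 (SD, n = 4; adjusted p = 0.180). *NR1H4* had ratios of -0.12, -0.18, -0.26 and -0.53, with a mean of -0.27 ± 0.18 (adjusted p = 0.0635). It was the only receptor tested that was dim in a channel. After normexp and loess these means were -0.03 for both.

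The remaining orphan receptors did not pass. *ESRRA*, a regulator of mitochondrial genes, had a mean log2 ratio of -0.16 ± 0.11 (SD, n = 4; adjusted p = 0.120) and 5 overlapping probes between -0.20 and -0.13. *NR4A1*, an immediate early gene, ranged from -0.44 to 0.08 over the arrays, with a mean of -0.13 ± 0.22 (adjusted p = 0.339). *NR2C1* was at -0.13 ± 0.15 (adjusted p = 0.258) and *NR2C2* at 0.10 ± 0.12 (adjusted p = 0.336), read by the paired probes printed above. The 95% interval was -0.30 to 0.05 for *NR2C1* and -0.06 to 0.26 for *NR2C2*, and both held 0.

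**Figure D4:**
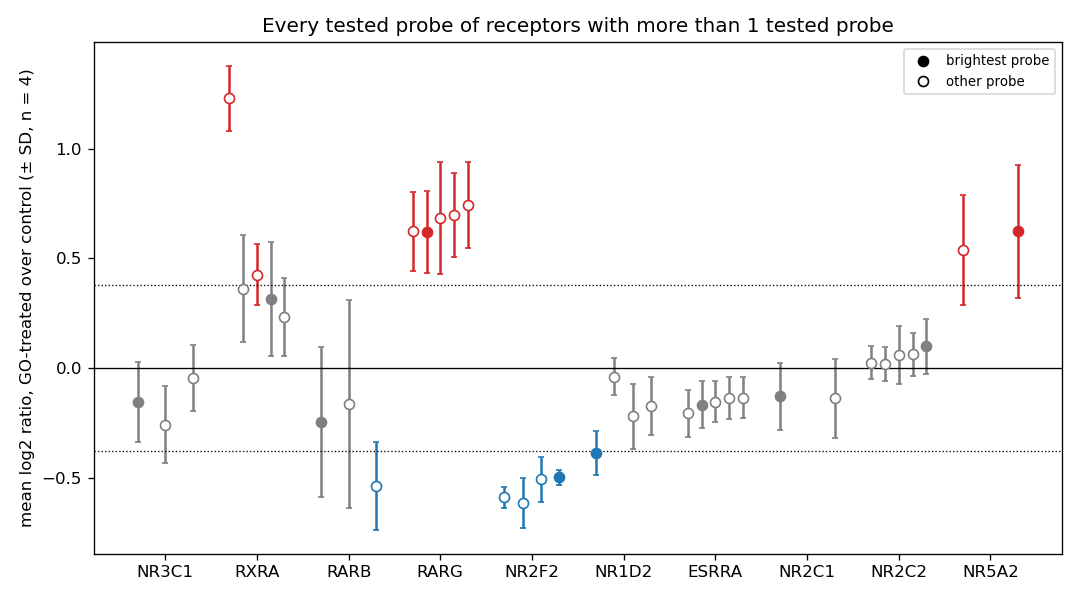
For the 10 receptors with more than 1 tested probe (horizontal axis), the mean GO over control log2 ratio of each tested probe (vertical axis), with bars of 1 SD over 4 arrays. Filled points are the brightest probe, red and blue mark probes past both thresholds. The 4 *NR2F2* probes lie together between -0.61 and -0.50, and the 5 *RXRA* probes spread from 0.23 to 1.23.

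Steroid and orphan receptors were compared by their per-array medians over the members tested, as a description with no test over members. Called were 1 of 2 steroid receptors, which was lower, and 3 of 7 orphan receptors, 1 higher and 2 lower. Of all named genes tested, 8.7% were called, 3.33% higher and 5.37% lower, and classes this small give no share to set beside these. The median of the steroid receptors was -0.48, -0.22, -0.19 and -0.29 on arrays 1 to 4, and that of the orphan receptors -0.04, -0.16, -0.13 and -0.30. The difference, steroid minus orphan, was -0.43, -0.06, -0.06 and 0.01, with a mean of -0.14 ± 0.20 (SD, n = 4 arrays). It was smaller than the spread between arrays and rested on array 1. With medians of the mean ratios it was -0.16, and -0.07 without array 1. The orphan receptors ranged from -0.50 to 0.62, and the steroid pair from -0.43 to -0.15, so the steroid pair lay inside the range of the orphan receptors. The median was 0.28 over the 2 retinoid X receptors and 0.01 over the 6 other ligand receptors. Of the 2 and 6 genes, 0 retinoid X receptors passed by their brightest probe, both at an unadjusted p under 0.05 and 0 by the plain one-sample test, and 1 other ligand receptor, *RARG*, passed.

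Genes that work with or downstream of the receptors were listed in 5 groups of 79 distinct genes, of which 50 were tested, 1 rose and 3 fell. The share called, 8%, was near the 8.7% of all named genes tested, so it is no result about the lists. Coregulators join receptors to the transcription machinery. Of 15 tested, 1 fell and 0 rose, with a median log2 ratio of -0.05. It was *NCOA1*, or SRC-1, a coactivator of steroid receptors, with ratios of -0.45, -0.30, -0.60 and -0.47 and a mean of -0.45 ± 0.12 (SD, n = 4; adjusted p = 0.00901). Each array was lower, and the call held after normexp and loess (-0.43). Past the adjusted p alone were *NRIP1*, a corepressor, at -0.36, and *NCOA4* at 0.21.

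Of 8 tested genes that glucocorticoids are known to induce, 2 fell and 0 rose, with a median of -0.03. This was 25% of a short list, beside 8.7% of all genes, and nothing particular to the list is read from it. They were *FOXO3* (-0.43 ± 0.23, SD, n = 4) and *FOXO1* (-0.40 ± 0.07), transcription factors known to drive genes of protein breakdown in muscle. After normexp and loess they were at -0.36 and -0.32 and did not pass the fold change threshold. Both calls were also lost without array 2 and without array 3, and that of *FOXO3* without array 4. *DUSP1*, a phosphatase of MAP kinases, was higher on all 4 arrays at 0.33 ± 0.07 (SD, n = 4; adjusted p = 0.0150), past the adjusted p alone. *FKBP5* and *TSC22D3*, common readouts of the glucocorticoid receptor, were at -0.05 and -0.02 and did not pass.

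Of 11 tested PPAR targets, which serve fatty acid uptake and oxidation, *FABP3* rose and 0 fell, with a median of -0.03. *FABP3*, a fatty acid carrier of heart and muscle, had ratios of 0.31, 0.33, 1.15 and 0.88 and a mean of 0.67 ± 0.42 (SD, n = 4; adjusted p = 0.0297). Its call was lost without array 2, 3 or 4. *ACADM*, which oxidizes medium-chain fatty acids, passed the adjusted p alone, at -0.37. *CPT1A* and *PLIN2* were at 0.07 and -0.03 and did not pass.

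Of 11 clock genes tested, 0 passed both thresholds in limma or in the plain one-sample test, and 4 stood at an unadjusted p under 0.05, with a median of 0.10, or -0.02 without lowess. *BHLHE40*, a repressor in the clock, was higher on all 4 arrays at 0.35 ± 0.23 (SD, n = 4) and passed the adjusted p alone (adjusted p = 0.0480). *ARNTL*, the clock activator that *NR1D2* is known to repress, was at 0.22 ± 0.19 (SD, n = 4; adjusted p = 0.109). Of 6 retinoid handling genes tested, 0 passed both thresholds in either test and 4 stood at an unadjusted p under 0.05, with a median of -0.08. Counts at an unadjusted p were not made over all genes, so neither is read as a trait of the clock or retinoid list. *CRABP2*, which carries retinoic acid to its receptors, was at 0.34 ± 0.23 and passed the adjusted p alone (adjusted p = 0.0495), as did *RBP4*, the carrier of retinol in blood, at 0.34 ± 0.14 (adjusted p = 0.0255). After normexp and loess *CRABP2* was at 0.24, *RBP4* at 0.11 and the clock gene *BHLHE40* at 0.22. *DHRS3*, a retinoic acid-induced reductase, was at -0.19 ± 0.18 (adjusted p = 0.137).

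**Figure D5:**
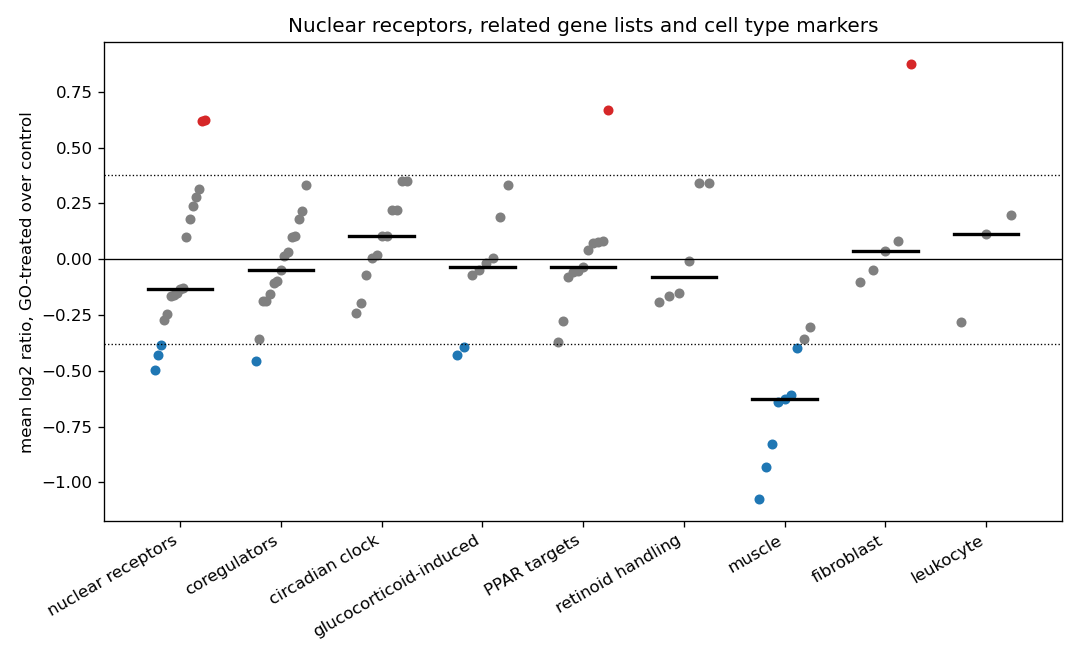
Mean GO over control log2 ratio of each gene tested, for the nuclear receptors, 5 lists of related genes and 3 lists of cell type markers, with black lines at the median of each list. Red and blue mark genes past both thresholds and dotted lines a fold change of 1.3. The muscle markers have a median of -0.63, and the medians of the 5 related lists lie between -0.08 and 0.10.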

How the data were processed

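Arrays were 2-color horse arrays on 1 slide. The authors used Feature Extraction, whose version is 10.10.1.1 in the headers and another in the methods. Intensity values deposited for a channel are raw, background-subtracted and processed signals. Processing covered detrending and a linear and lowess correction of the dyes. The authors deposited log10 ratios of the processed Cy5 over Cy3 signal, and their table of the series held equal values for 174412 of 174412.

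Ratios were converted to log2, 1417 control spots and 10 to 19 outlier spots per array were left out, and spots of a probe were averaged. Of 43603 probes, 26832 were tested, those well above background in a channel on all 4 arrays. The two-sided test asked whether the mean of 4 ratios differed from 0. It was that of limma 3.58.1 (R 4.3.3), with Benjamini-Hochberg adjustment over the 26832 probes. The methods give the thresholds and name no test. The median signal was 3.66 to 4.22 times local background in the control and 2.85 to 4.37 times in the GO channel, with 0 saturated spots, and the number of arrays limits precision. A gene was counted by its brightest probe, chosen before the filter. Symbols and positions (EquCab1) are those of the array files, and the genome itself was not used here. Both channels of an array were hybridized together and so are paired. Their deviations from the channel means had correlations of 0.48 to 0.86 within an array and -0.54 to 0.24 between arrays.

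Receptors and lists were chosen with earlier results of these data known. Every receptor is named, and of each list at most the 3 largest rises and 3 largest falls past both thresholds were to be named, with a few further members picked after their values were seen. The test was tried on simulated data. Alternatives were other normalizations and centring, other filters, a plain one-sample test, array weights, channels without the array, the authors' table, all probes of a gene, and each array left out.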

Additional observations from a re-analysis of the deposited data

How the results depend on the processing

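The count of 5 receptors past both thresholds was 2 without a filter on dim probes, 1 under the plain one-sample test (*NR2F2*), and 3 to 4 with each array left out in turn. With no replicate block, each channel being a sample of its own, it was 0 of 17 in limma, with 4 at an unadjusted p under 0.05. It was 4 after normexp and loess, without lowess and with array weights, and 5 in the other settings, of which the mean of all probes shared 4 and added *RXRA*. The 4 genes of the related lists became 2 after normexp and loess, 1 without the filter, 0 under the plain test (15 at an unadjusted p under 0.05), 0 with no replicate block (7 at an unadjusted p under 0.05), and 2 to 4 with each array left out. Of all named genes tested, 8.7% passed in the main fit, 3.96% after normexp and loess, 10.8% without lowess and 8.96% with array weights. Without the filter, 1.97% of 13350 genes passed. Without arrays 1, 2, 3 and 4 in turn, the shares were 8.59%, 5.53%, 5.3% and 7.45%. Under the plain test and with no replicate block they are those given above. Over 14 alternatives *NR2F2* kept its call in 13, *RARG* in 11, *NR5A2* in 9, *NR1D2* in 7 and *NR3C2* in 7, and 0 reversed. The authors' table, counted among the 14, holds the ratios already used, so the calls kept there add nothing. Centring those ratios on the median also changed them little, as for *NR2F2* from -0.496 to -0.501. *NR1D2* lost its call without array 1 and without array 4. All 17 receptors tested kept their sign after normexp and loess and without lowess. The difference between steroid and orphan medians, -0.16, kept its sign and lay between -0.21 (without lowess) and -0.05 (normexp and loess). Causes were not tested. Signal over background leaves 18 receptors with a probe without a test.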
